A study of Mus musculus with 8 samples.

Results

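Potassium channel genes were followed in islets of Langerhans, the endocrine part of the pancreas. Members were all genes of the deposited table whose symbol begins with Kcn followed by a family letter and a number, with 1 symbol left out. They numbered 59 of 14126 genes and came from 17 subfamilies. By class, 25 were voltage-gated pore subunits, 2 electrically silent modifier subunits and 6 pore subunits of the family named calcium- or sodium-activated. A further 8 were inward rectifiers, 9 two-pore-domain subunits and 9 auxiliary subunits. All 59 passed the filter on low values. The choice used symbols only, not measured values.

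Bulk RNA sequencing compared 2 groups of 4 libraries. The mice were 7 weeks old and of the strain NOD/ShiLtJ, in which diabetes arises spontaneously through autoimmunity. WT libraries came from mice with floxed IRE1α (IRE1αfl/fl), and KO libraries from mice labelled as lacking IRE1α in beta cells (IRE1αβ-/-). IRE1α, encoded by Ern1, is a sensor of stress in the endoplasmic reticulum. Both groups are recorded as having received tamoxifen intraperitoneally (10 mg/ml, 2 injections per 24 hours for 5 days) to activate Cre. The sources used here give neither the promoter driving Cre nor whether WT mice carried Cre.

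Potassium channels let potassium leave the cell and so hold or return the membrane potential to negative values. In beta cells, closure of ATP-sensitive potassium channels by glucose metabolism depolarizes the membrane and opens calcium channels, and voltage- and calcium-gated potassium channels then end each action potential. Alpha and delta cells use overlapping sets of these channels. A channel is built from pore subunits, some of which do not conduct alone, together with auxiliary subunits that set gating and surface expression.

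Values are normalized counts per gene that the authors rounded to whole numbers, and they summed to between 32024139 and 34858983 per library. Members held 0.0642% to 0.072% of that sum in WT libraries and 0.0751% to 0.0804% in KO libraries. Sequencing depth is unknown, so precision rests on the spread between libraries. Ern1 lay at 4500 to 5549 in WT and 6922 to 7390 in KO (log2 fold change of 0.54 ± 0.08, adjusted p = 0.00234). A total over the whole gene can hold reads from outside the floxed part, so it does not check the labels, and all directions below are those of libraries labelled KO against libraries labelled WT. Libraries numbered 1 and 2 of each label stood apart from those numbered 3 and 4: summed values of 11 immediate early genes, which respond to handling, were 6602 to 21264 in the former and 152814 to 318608 in the latter. The labels record no batch.

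Levels of islet cell type markers differed between the labels. Of 12 measured beta cell markers, 9 were lower in KO, and their summed value was 5471296 to 6123743 in WT and 2594698 to 3566444 in KO, led by Ins2 and Ins1. With the replicate number as a block 7 of the 12 were lower, and Ins2 was not among them (adjusted p = 0.104). Of 11 alpha cell markers 7 were higher and 1 lower, with sums of 422998 to 1061060 in WT and 1938287 to 2643208 in KO, led by Gcg and Ttr. All 5 delta cell markers in the table were higher (sums of 73593 to 126566 against 150082 to 256845, led by Sst and Rbp4), as were 2 of 3 pancreatic polypeptide and epsilon cell markers (30601 to 63431 against 121579 to 135440, led by Ppy and Pyy). No marker of these lists was at 0 throughout. The part of these shifts in the channel results was not tested, and in whole islets fewer cells of a type and less RNA per cell cannot be told apart.

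More potassium channel genes were higher than lower in KO islets. Of the 59 members 18 were higher (30.5%), 6 were lower (10.2%) and 35 did not pass (limma-trend, Benjamini-Hochberg adjusted p under 0.05 over 14121 genes). Over all genes tested the shares were 11.1% higher and 9.81% lower, the background also for the counts by marker list, class and subfamily. The share of members that were lower was thus close to the background and the share that were higher was not. The median log2 fold change, on the log2(value + 1) scale used throughout, was 0.5 over the members and -0.001 over all genes, and 45 of 59 members had a positive value against 7050 of 14121 genes. Changes of at least 1 on the log2 scale passed in 17 members, 13 higher (22% of members, 4.96% of all genes) and 4 lower (6.78% of members, 1.35% of all genes). Under quantile normalization 13 members were higher (9.62% of all genes) and 6 lower (9.67%). KO values lay wholly above WT values in 20 members (13.6% of all genes) and wholly below in 6 (12.3%).

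**Figure D1:**
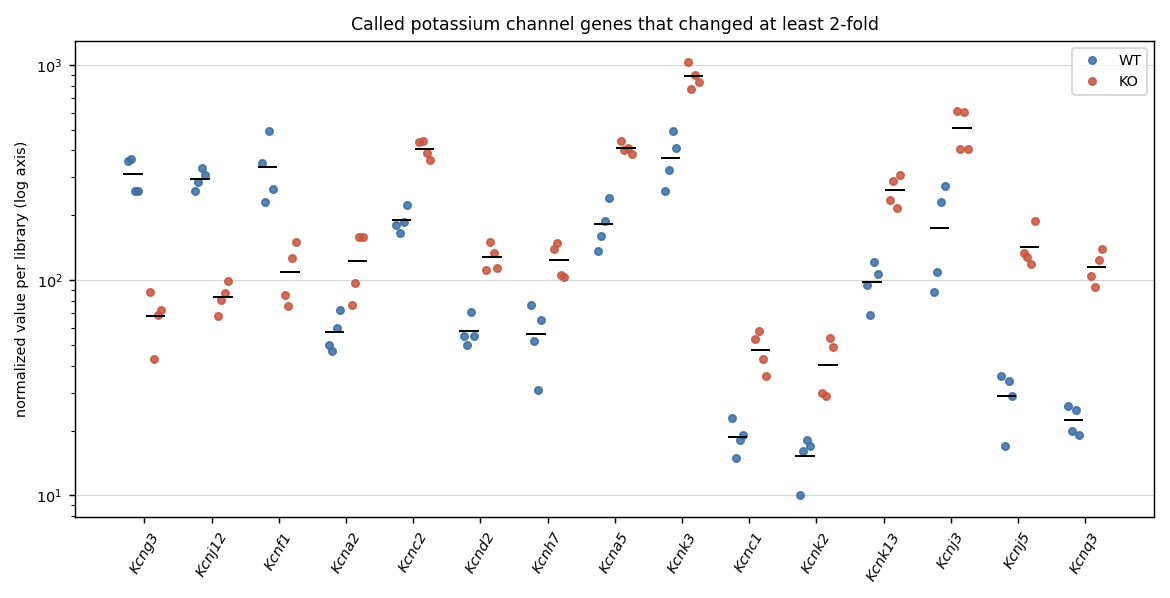
Normalized value (log axis) in each of 4 WT (blue) and 4 KO (red) libraries for 15 of the 17 called members with a log2 fold change of at least 1 in size, with short black lines at the group means, ordered by fold change. Kcng3, Kcnj12 and Kcnf1 lay lower in every KO library than in any WT library, and the other 12 shown lay higher.

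The KCNQ subfamily held the largest rise among the members. Its products carry slow, non-inactivating currents, and Kcnq3 encodes a subunit of the neuronal M-channel. Kcnq3 (ENSMUSG00000056258, GRCm38 chromosome 15, 65986387 to 66286642, minus strand) had values of 26, 20, 25 and 19 in WT replicates 1 to 4 and 105, 93, 124 and 140 in KO replicates 1 to 4. Every KO value was several times the highest WT value, and the log2 fold change was 2.3 ± 0.23 (SE, adjusted p = 3.41e-04). Kcnq1, which encodes a cardiac and epithelial channel, did not pass (0.57 ± 0.33, adjusted p = 0.267).

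Both modifier subunits fell. Such subunits form no channel alone and join pore subunits of the Kcnb subfamily, whose properties they change. Kcng3 (chromosome 17, 83585957 to 83631895, minus strand) had values of 358, 364, 260 and 258 in WT and 88, 43, 69 and 73 in KO. With a log2 fold change of -2.19 ± 0.24 (adjusted p = 4.99e-04) it had the most negative value of the members. Kcnf1 (chromosome 12, 17172100 to 17176888) had 350, 230, 490 and 265 in WT and 85, 76, 127 and 150 in KO, with no overlap although WT replicate 3 stood high (-1.59 ± 0.29, adjusted p = 0.00548). Kcnb2, a pore subunit gene that such modifiers can join, did not pass (-0.2 ± 0.19, adjusted p = 0.496). It had 483, 648, 368 and 376 in WT and 419, 459, 372 and 349 in KO, and the groups overlapped.

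Among voltage-gated pore subunits outside the KCNQ subfamily 7 rose and none fell. Kcna5, encoding a delayed rectifier subunit (chromosome 6, 126532551 to 126535412), had 137, 161, 188 and 240 in WT and 441, 400, 412 and 384 in KO (1.2 ± 0.17 on the log2 scale, adjusted p = 0.00162). Kcnc2, of a subfamily of fast-closing channels that allow rapid firing, had 180, 166, 187 and 224 in WT and 439, 443, 388 and 363 in KO (1.11 ± 0.13, adjusted p = 6.27e-04). In both genes the groups were far apart. The difference was 1.49 for libraries 1 and 2 and 0.9 for libraries 3 and 4 in Kcna5, and 1.35 and 0.87 in Kcnc2. Kcnd2, a pore subunit of transient A-type currents, had 55, 50, 71 and 55 in WT and 112, 150, 134 and 114 in KO (1.13 ± 0.18, adjusted p = 0.00314). Kcnd1, from the same subfamily, did not pass (-0.27 ± 0.21, adjusted p = 0.401).

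Kcnc1, Kcna2 and Kcnh7 rose from low levels. Kcnc1 had 23, 15, 18 and 19 in WT and 53, 58, 43 and 36 in KO (1.29 ± 0.29, adjusted p = 0.0146), a call that quantile normalization did not keep (adjusted p = 0.119). Kcna2, a subunit of axonal channels, had 50, 47, 60 and 73 in WT and 77, 97, 159 and 158 in KO. KO replicates 3 and 4 were high and KO replicate 1 lay just above the highest WT library, with a log2 fold change of 1.03 ± 0.28 (adjusted p = 0.0298). Leaving out WT replicate 1, 2 or 3, or KO replicate 3 or 4, took it past the threshold (adjusted p up to 0.0837), as did quantile normalization (0.0841). Kcnh7, of the ether-a-go-go-related genes, had 77, 52, 31 and 65 in WT and 139, 148, 106 and 103 in KO (1.18 ± 0.29, adjusted p = 0.0202). Omitting WT replicate 2, KO replicate 1 or KO replicate 2 lost the call (adjusted p up to 0.0562), as did quantile normalization (0.0875). Its exons overlap those of Gca on the opposite strand by 696 bases, so reads of both cannot be told apart if strand was not used.

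Within the ether-a-go-go family, whose channels open slowly or recover slowly and shape the interval between action potentials, 2 of 7 genes rose. Kcnh1 had 901, 895, 751 and 668 in WT and 1204, 1189, 1176 and 1360 in KO (0.62 ± 0.11, adjusted p = 0.00538), without overlap. Kcnh2 and Kcnh6, both of which encode rapidly inactivating channels that resurge on repolarization, overlapped between groups. Kcnh2 had 1133, 1434, 1513 and 1527 in WT and 1482, 1511, 1094 and 1070 in KO (-0.13 ± 0.15, adjusted p = 0.588). Libraries 1 and 2 gave a difference of 0.23, and libraries 3 and 4 one of -0.49. Kcnh6 had 1300, 1617, 1499 and 1307 in WT and 1869, 1774, 1461 and 1403 in KO (0.18 ± 0.12, adjusted p = 0.323). The remaining 3 genes, Kcnh3, Kcnh5 and Kcnh8, lay between -0.2 and 0.31.

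**Figure D2:**
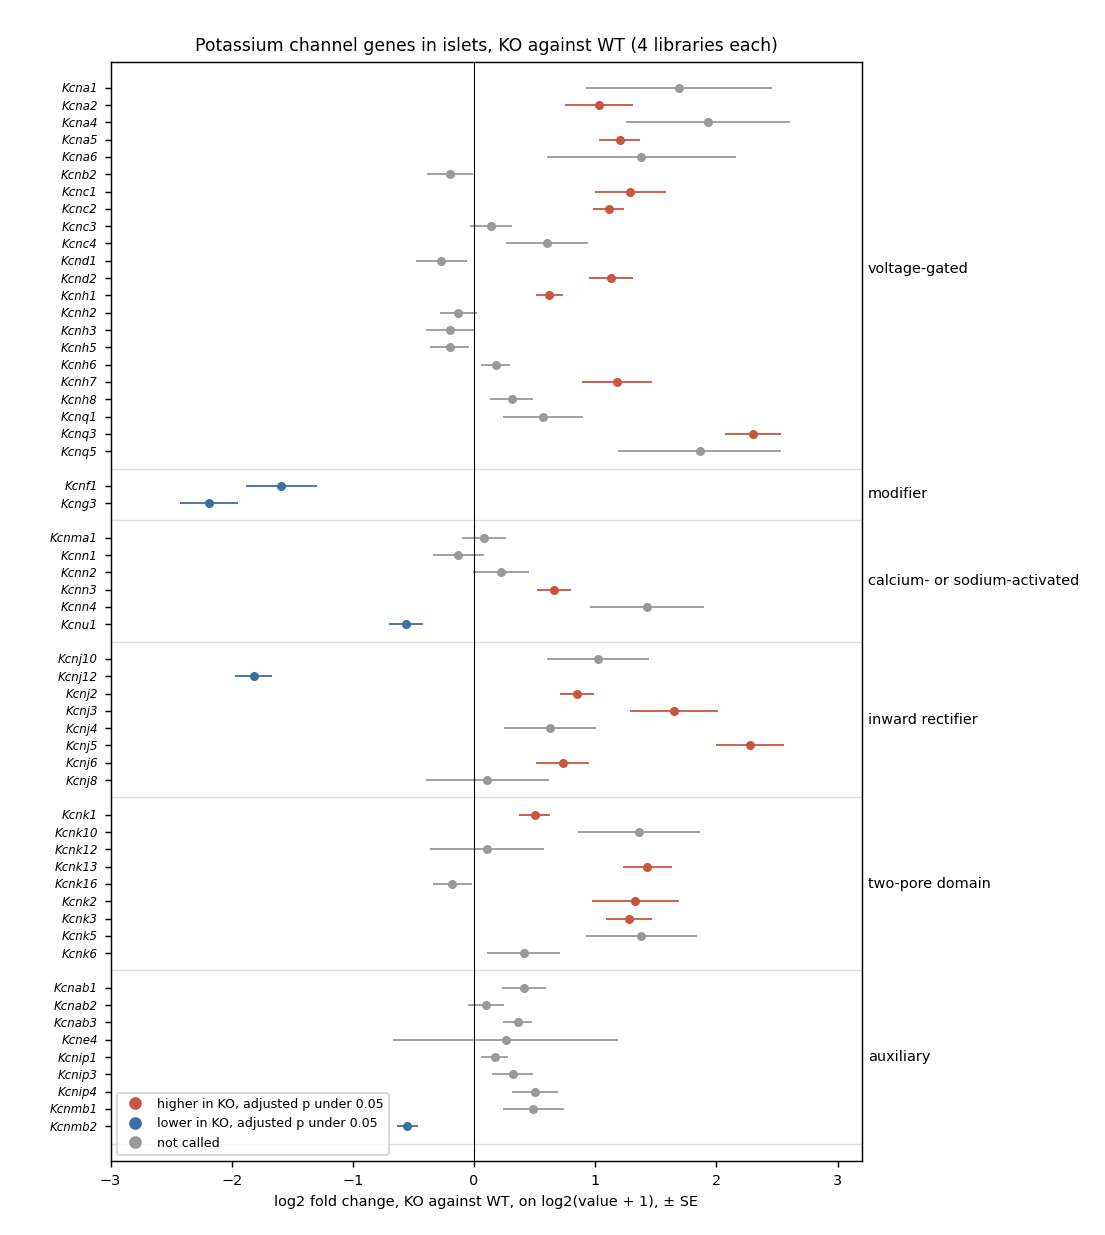
Log2 fold change of KO against WT (horizontal axis, on log2(value + 1)) for 56 of the 59 members, with bars of 1 SE, grouped by channel class. Red points were higher and blue points lower at an adjusted p under 0.05, and grey points did not pass. Both modifier subunits lay below 0, and no two-pore-domain gene was called lower.

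Inward rectifiers conduct best near or below the resting potential and hold cells there. Of 8 measured genes, 4 rose, 1 fell and 3 did not pass. Kcnj3, Kcnj5 and Kcnj6, whose products form channels opened by G protein beta-gamma subunits downstream of inhibitory receptors such as those for somatostatin, were all higher. Kcnj5 (chromosome 9, 32314707 to 32344350) had 36, 17, 34 and 29 in WT and 133, 128, 119 and 189 in KO (2.28 ± 0.28, adjusted p = 8.78e-04). Kcnj3 (chromosome 2, 55435970 to 55598145) had 88, 109, 231 and 273 in WT and 609, 405, 603 and 407 in KO (1.65 ± 0.36, adjusted p = 0.0127). No KO library reached down to a WT library in either gene, but the WT libraries of Kcnj3 split by number, with a difference of 2.33 for libraries 1 and 2 against 0.98 for libraries 3 and 4. Kcnj6 had 150, 165, 112 and 132 in WT and 272, 296, 233 and 151 in KO, with KO replicate 4 inside the WT range. It was the only called member with overlapping groups (0.73 ± 0.22, adjusted p = 0.0469). Omitting any 1 library other than KO replicate 4 lost the call (adjusted p up to 0.115), as did quantile normalization (0.116).

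The strong rectifiers went in opposite directions. Kcnj12 (chromosome 11, 61022564 to 61071131) had 258, 286, 332 and 309 in WT and 68, 81, 87 and 99 in KO. Its log2 fold change of -1.82 ± 0.15 carried the smallest adjusted p of the members, 1.51e-04, with -1.86 for libraries 1 and 2 and -1.78 for libraries 3 and 4. Kcnj2, which encodes a closely related classical inward rectifier, had 136, 107, 104 and 127 in WT and 228, 221, 182 and 227 in KO (0.85 ± 0.14, adjusted p = 0.00393). The groups were apart in both genes. Kcnj4, the third gene of this group, did not pass (0.63 ± 0.38, adjusted p = 0.275), with 1.53 in libraries 1 and 2 and -0.27 in libraries 3 and 4. Kcnj10, a glial and epithelial channel gene, stood at 1.02 ± 0.42 (adjusted p = 0.116).

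Two-pore-domain channels pass the leak currents that set the resting potential. Of 9 genes 4 rose, none fell and 5 did not pass. Kcnk3, encoding an acid-sensitive leak channel (chromosome 5, 30588170 to 30625271), had 260, 323, 492 and 409 in WT and 1026, 775, 900 and 836 in KO (1.28 ± 0.19, adjusted p = 0.00211). Kcnk13, encoding a channel inhibited by halothane, had 95, 69, 121 and 107 in WT and 235, 290, 217 and 309 in KO (1.43 ± 0.20, adjusted p = 0.00165). Each KO library was above each WT library in both. Kcnk2, a mechanosensitive channel gene, had 10, 16, 18 and 17 in WT and 30, 29, 54 and 49 in KO (1.33 ± 0.36, adjusted p = 0.0307). This low gene did not pass once WT replicate 1, 2 or 3, or KO replicate 3 or 4, was dropped (adjusted p up to 0.0974), nor under quantile normalization (0.1). Kcnk1, a weak inward rectifier of this family, had 1004, 1040, 1428 and 1338 in WT and 1634, 1545, 1854 and 1709 in KO. The groups were apart, with WT replicates 3 and 4 closest to KO (0.5 ± 0.13, adjusted p = 0.0239), and any of WT replicates 1 and 2 and KO replicates 1, 3 and 4 was needed for the call (adjusted p up to 0.0674 without it).

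Kcnk16, which encodes the two-pore-domain channel most typical of beta cells, did not pass. It had 3175, 3679, 3005 and 2291 in WT and 2744, 3281, 2393 and 2287 in KO, largely the same range (-0.18 ± 0.16 on the log2 scale, adjusted p = 0.479).

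Calcium-activated channels couple calcium entry to repolarization. Kcnma1, the pore subunit of the large-conductance channel, had 2329, 2320, 1470 and 1440 in WT and 2166, 2147, 1779 and 1741 in KO, so values followed the replicate number more than the label (0.08 ± 0.18, adjusted p = 0.793). Its beta subunit Kcnmb2, which gives that channel fast inactivation, fell. Kcnmb2 (chromosome 3, 31902507 to 32200180) had 2743, 2672, 2302 and 2306 in WT and 1516, 1833, 1718 and 1781 in KO, without overlap (-0.55 ± 0.09, adjusted p = 0.00404). Kcnmb1, another beta subunit of the channel, did not pass (0.49 ± 0.25, adjusted p = 0.193). Of the small-conductance genes Kcnn3 rose, with 466, 498, 420 and 389 in WT and 788, 814, 667 and 559 in KO (0.66 ± 0.14, adjusted p = 0.0105), while Kcnn1 and Kcnn2 stood at -0.13 and 0.22. Kcnu1, placed here by family alone, is known for a sperm channel. It had 268, 264, 322 and 303 in WT and 157, 208, 228 and 193 in KO (-0.56 ± 0.14, adjusted p = 0.0221). The groups did not overlap, but dropping WT replicate 3 or KO replicate 4 lost the call (adjusted p up to 0.0602).

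Of the 9 auxiliary subunits 1, Kcnmb2, passed. The calcium-binding proteins of the Kcnip subfamily, which bind A-type channels, had log2 fold changes of 0.17 (Kcnip1), 0.32 (Kcnip3) and 0.5 (Kcnip4), with adjusted p from 0.0853 to 0.324. Kcnip1 had 2243, 1932, 1733 and 2059 in WT and 1852, 2477, 2271 and 2398 in KO, which overlapped. The cytoplasmic beta subunits Kcnab1, Kcnab2 and Kcnab3 lay between 0.1 and 0.41. Kcnab3 had no overlap, with 180, 215, 214 and 195 in WT and 269, 260, 227 and 276 in KO, and did not pass (0.36 ± 0.12, adjusted p = 0.0571). With a term for the set of replicate numbers Kcnip4 and Kcnab3 were called higher (adjusted p = 0.0202 and 0.0446), and the authors' deposited table calls Kcnip4 (FDR = 0.041).

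Genes outside the Kcn symbols whose products bind or regulate potassium channels were read from a list of 30, of which 26 were in the table. Of these 8 were higher, 1 lower and 17 did not pass, beside 11.1% higher and 9.81% lower over all genes. The largest rise was in Dpp6, a transmembrane partner that speeds A-type channels, with 656, 647, 785 and 832 in WT and 2870, 2863, 2683 and 2731 in KO (1.94 ± 0.10, adjusted p = 3.05e-05). Its relative Dpp10 rose by 1.02 ± 0.10 and Ncs1, a calcium sensor that also modulates these channels, by 1.14 ± 0.17. The A-type pore gene Kcnd2 and these 3 partners were therefore all higher, whereas Kcnd1 and the Kcnip genes did not pass. Also higher were Adam23 (0.98), Gng2, a G protein gamma subunit gene (0.94), and the calmodulin genes Calm2 (0.58) and Calm3 (0.34), whose product is the calcium sensor of small-conductance channels. Vapb, a membrane protein of the endoplasmic reticulum at its contacts with the cell surface, fell by 0.27 ± 0.07 (adjusted p = 0.0237). Amigo1, an adhesion protein found in delayed rectifier complexes, stood at -0.1 ± 0.06 (adjusted p = 0.292).

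Levels can be set against each other between genes only per length, and were divided by the kilobases of annotated exon. On that scale Kcnk16 stood highest in both groups, with a mean value per kb of 1277.9 in WT and 1125.9 in KO. It was followed in WT by Kcnmb2 (801.1), Kcnk1 (538), Kcnh6 (403.1), Kcnip1 (321.2) and Kcnh2 (289.3), and these 6 genes made up 65% of the members' summed value per kb. The same 6 held 58.9% in KO, where Kcnk1 (754.1) stood above Kcnmb2 (547.3). Several called genes changed rank without reaching these levels. Kcng3 went from 13th of 59 to 42nd, Kcnf1 from 18th to 40th and Kcnj12 from 10th to 32nd, while Kcnj3 went from 25th to 13th and Kcnj5 from 48th to 33rd. Kcnq3 remained among the lowest, at 1.53 per kb in WT and 7.85 in KO.

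**Figure D3:**
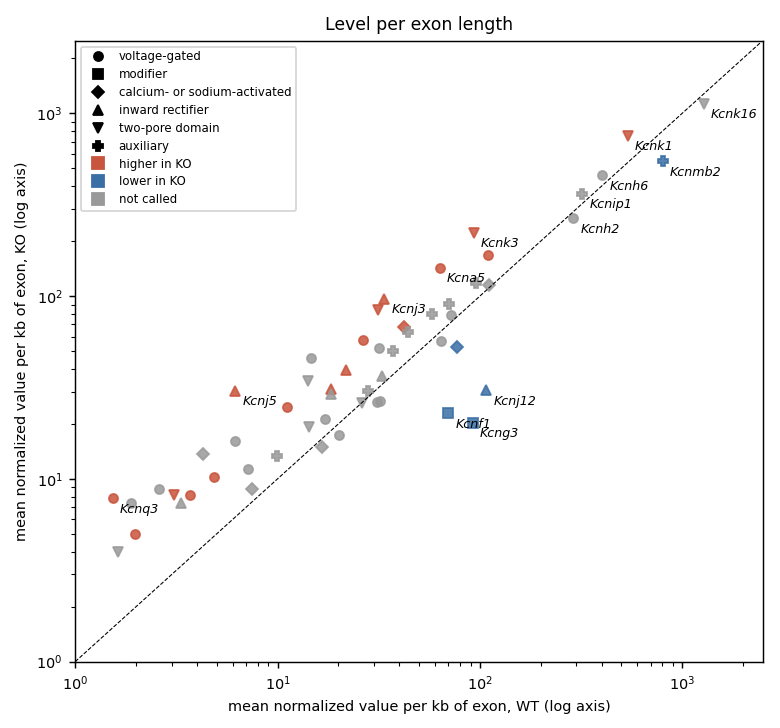
Mean normalized value per kilobase of annotated exon in KO (vertical) against WT (horizontal), both on log axes, for 56 of the 59 members. Marker shape gives the class, colour gives the call, and the dashed line marks equal levels. Kcnk16, at 1277.9 in WT and 1125.9 in KO, lies at the upper end near the line, and Kcng3, Kcnf1 and Kcnj12 lie below it.

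The direction of every called member was the same in both sets of replicate numbers. The members were called from these same 8 libraries, so that agreement was favoured by their choice and is no replication. Libraries 1 and 2 alone called 21 members higher and 5 lower (background 12.2% and 10.8%), and libraries 3 and 4 alone called 20 and 8 (background 11.4% each). In all, 15 members were called higher and 5 lower in both sets, including 18 of the 24 called with 8 libraries. For the 13 large rises the smallest log2 fold change was 0.82 with libraries 1 and 2 alone and 0.87 with libraries 3 and 4 alone. A test of whether the difference itself changed between the sets passed for none of the 59 members (limma-trend interaction term, lowest adjusted p = 0.105). Its unadjusted p was under 0.05 for 11. No share over all genes stands beside that count or beside the counts called in both sets. Neither therefore sets the members apart from other genes. The authors' deposited table, with an FDR under 0.05, called 26 members higher and 6 lower (background 16.2% and 13.1%), including all 24.

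**Figure D4:**
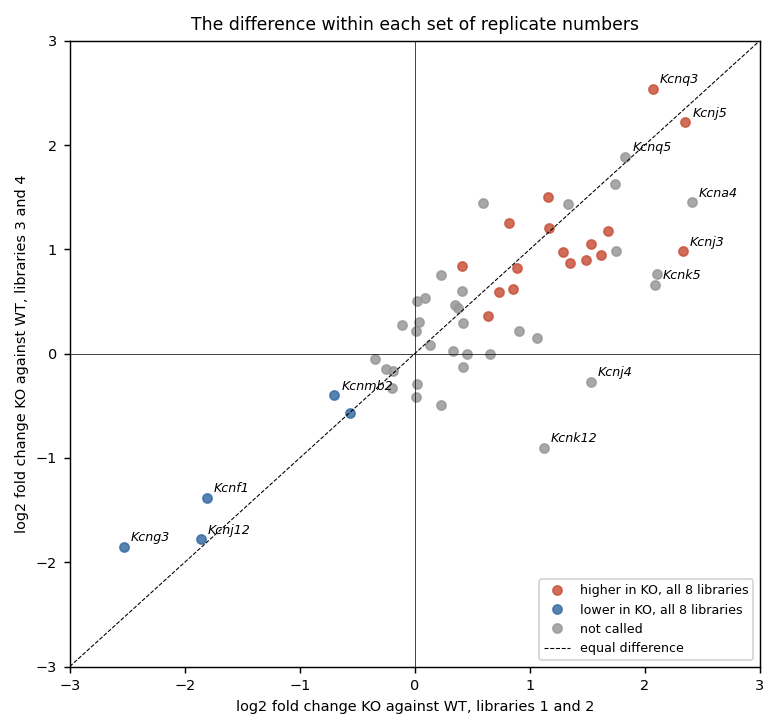
Log2 fold change of KO against WT in libraries 3 and 4 (vertical) against that in libraries 1 and 2 (horizontal) for 56 of the 59 members, coloured by the call over all 8 libraries. The dashed line marks equal differences. All 22 called members shown lie in the quadrants of equal sign, and Kcnj4 and Kcnk12 lie positive in libraries 1 and 2 and negative in libraries 3 and 4.

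A further set of members varied with the replicate number within both labels. Kcna1, Kcna4, Kcna6, Kcne4, Kcnj8 and Kcnq5 were at least 1 log2 unit higher in libraries 3 and 4 than in libraries 1 and 2 within both labels, as were 3.39% of all genes. These 6 genes were singled out after their values were seen. With the replicate number as a block 25 members were higher and 6 lower (14.2% and 11.7% of all genes), and with a term for the set of numbers 27 and 6 (17% and 14.9%). Kcna1, an axonal channel gene (chromosome 6, 126640397 to 126646384), had 24, 22, 88 and 148 in WT and 99, 63, 401 and 317 in KO. Each KO library was above the WT library of the same number, but KO replicate 2 lay below WT replicates 3 and 4, and the log2 fold change was 1.69 ± 0.77 (adjusted p = 0.153, and 0.00388 with the replicate block). Kcnq5 had 6, 6, 25 and 21 in WT and 26, 22, 104 and 74 in KO (1.86 ± 0.67, adjusted p = 0.0794, and 0.00601 with the block). Kcna4 and Kcna6 had adjusted p of 0.0765 and 0.246, and of 0.0116 and 0.0184 with the block. Kcne4, an auxiliary subunit gene, and Kcnj8, a vascular ATP-sensitive channel gene, were called with neither. Kcna1 and Kcna4 also passed in libraries 1 and 2 alone and in libraries 3 and 4 alone, Kcna6 and Kcnq5 in libraries 3 and 4 alone, and the authors' deposited table calls all 4. Kcne4 had 25, 33, 183 and 153 in WT and 34, 25, 231 and 243 in KO, so the label made little difference beside the number.

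Some Schwann cell and stellate cell or pericyte markers, of cells around the islet, showed the same order of libraries. None of the 16 acinar, 10 ductal, 10 endothelial and 12 macrophage markers did, and 1 of 5 lymphocyte markers did. Of 8 measured Schwann cell markers, 5 were at least 1 log2 unit higher in libraries 3 and 4 within both labels, and their list summed to 3446 to 4522 in WT and 3306 to 4886 in KO, a sum dominated by Mbp. Scn7a, a Schwann cell marker, had 53, 56, 222 and 265 in WT and 223, 148, 717 and 675 in KO (1.62 ± 0.69, adjusted p = 0.131, and 0.0015 with the replicate block). With the block 2 of the 8 Schwann cell markers were higher in KO, and without it none. Gfap, Sox10 and Cdh19, of that list, had low WT values, of up to 34, 35 and 20. Of 12 stellate cell and pericyte markers 6 followed the same order, with sums of 9554 to 15377 in WT and 16546 to 28057 in KO. Of these 12 markers 1 was higher without the block and 7 with it. All 11 immediate early genes also followed that order of libraries. The part of these cells in the 6 channel genes was not tested.

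**Figure D5:**
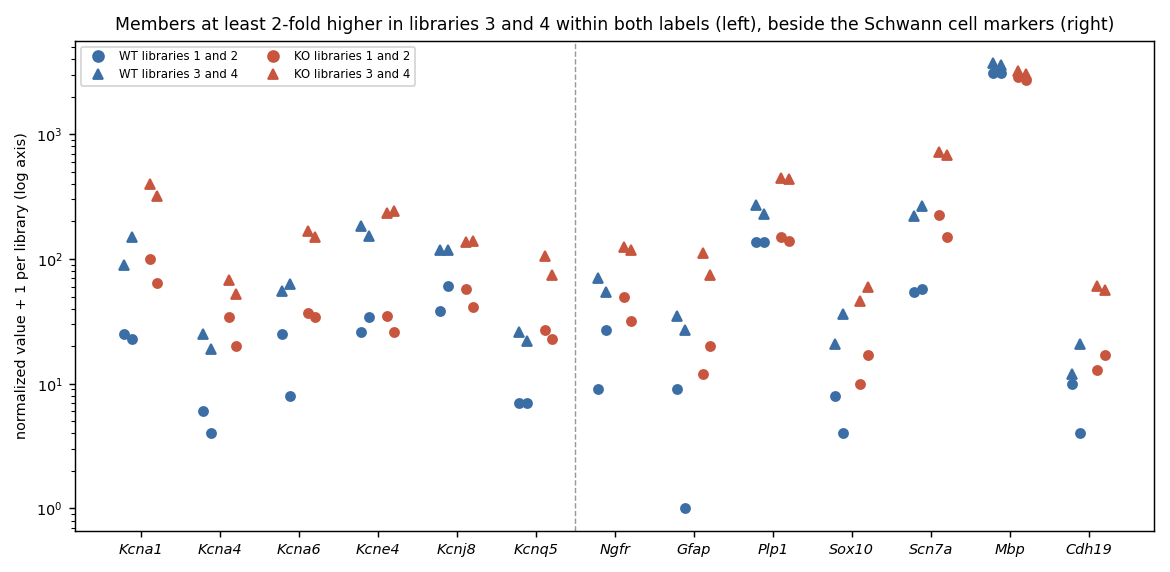
Normalized value plus 1 (log axis) in each library for the 6 members at least 1 log2 unit higher in libraries 3 and 4 (triangles) than in libraries 1 and 2 (circles) within both labels, and for 7 Schwann cell markers, with WT in blue and KO in red. The triangles of each label lie above its circles in all 6 members, and Mbp lacks that spread.

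The promoters of 2 members, neither called, held the letters TGACGTGG, the element bound in the unfolded protein response by the factor whose messenger RNA IRE1α splices. Both strands of the 250 bases before each RefSeq start (GRCm38.p6) were searched, and 163 of 27025 genes held it (0.603%). Promoters were in the table for 44 members, 19 of them called, and none of those 19 held it. Both matches read on the opposite strand, and are shown here with the match in capitals because IRE1α acts upstream of that factor. No site is inferred from these letters. Kcna6 was at chr6:126740675-126740693, minus strand, 9 bases before the start, and Kcnab2 at chr4:152477710-152477737, minus strand, 178 bases before the start. In the GENCODE annotation the first stretch overlaps an exon of Gm26673 and the second lies over an annotated exon of Kcnab2 itself.
Kcna6: gcggggcctgCCACGTCAc
Kcnab2: agaacccgccCCACGTCActtttgcgtc

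KO replicate 1 was the highest library in Kcnn4, Kcnq1 and Kcnk5, none of them called. It was also the highest in other members, Kcnh6 and Kcna5 among them. Kcnn4, which encodes the intermediate-conductance calcium-activated channel of ducts and immune cells, had 22, 14, 32 and 20 in WT and 153, 41, 46 and 41 in KO (1.43 ± 0.47, adjusted p = 0.0609, and 0.0396 with the replicate block). Kcnq1 had 162, 128, 114 and 116 in WT and 403, 183, 133 and 136 in KO. Kcnk5 had 24, 24, 79 and 67 in WT and 168, 66, 105 and 128 in KO (1.38 ± 0.46, adjusted p = 0.0642, and 0.039 with the block). Of the 10 ductal markers 3 were higher in KO and 8 had their highest value in that library. They summed there to 44304, against 21583 to 29283 in the other KO libraries and 12621 to 25864 in WT. That sum was led by Spp1, with 19589 in KO replicate 1, 6547 to 10277 in the other KO libraries and 951 to 1500 in WT. Krt8 and Krt18, keratin genes of the ductal list, were highest in WT replicate 3 and KO replicate 3. KO replicate 1 also held the highest value of 8 of the 11 alpha cell markers, and the highest alpha sum, 2643208. The part of duct or alpha cells in these values was not tested. Kcnn4, Kcnq1, Kcnk5 and Kcnk10 (1.36 ± 0.50, adjusted p = 0.086, and 0.0309 with the block) were also named after their values were seen.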

How the data were processed

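Islet RNA was sequenced as 8 libraries, grouped by title into WT and KO (4 each). The submitters' processing notes name STAR 2.5.3a and RSEM 1.2.31, bcl2fastq 2.20, build GRCm38.p5 and edgeR 3.16.15. No source used here gives settings, annotation or strandedness. The authors deposited 1 table. Its per-library columns are normalized counts rounded to whole numbers, read here as a score and not as raw counts, since median-of-ratios factors were 0.994 to 1.01 while totals differed. Low values skipped 4 whole numbers between 5 and 60 in WT replicate 3 and 7 in WT replicate 4, and none in the other libraries, so no depth was recovered. The same deposited table holds the authors' log2 fold change and log2 CPM, a likelihood ratio score, and p-value and FDR columns.

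Values were fitted with limma-trend (limma 3.58.1, R 4.3.3) on log2(value + 1) over the 14121 genes that reached 1 in 4 or more libraries. P-values were adjusted by Benjamini-Hochberg with a threshold of 0.05. Standard errors are limma's moderated ones. The titles number 4 libraries per group, which the fit took as independent. Members and lists were chosen with earlier results of these data known. Members were named in full when called with a log2 fold change of at least 1 and no overlap, when among the 8 with the highest mean value, or when the replicate block changed the call at a mean value of at least 100. Deviations of same-numbered libraries from the group means correlated across 13081 genes (not independent replicates) with r of 0.327, 0.583, 0.664 and 0.381. Differently numbered libraries of the same set (1 with 2, 3 with 4) correlated as much, with r of 0.454, 0.433, 0.466 and 0.516. Between the sets r was -0.612 to -0.318. These values show the sets but not pairing by number, so the replicate block served only as an alternative fit. Alternatives were other pseudocounts (0.1 and 10), filters, scalings, terms for replicate number or set, each set alone, no trend, the authors' FDR and leaving out each library. The fit was first tested on simulated data. Positions and exon lengths are from GENCODE M21 (GRCm38). Some symbols that these rules name are counted but not reported here.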

Additional observations from a re-analysis of the deposited data

Results flagged for a closer look

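In 2 called members 1 library stood apart from the other 3 of its group by more than Dixon's 95% critical value for 4 values (gap over range of 0.848 in both). The highest KO library of Kcnh1 was replicate 4, at 1360 against 1176 to 1204 in the other 3. The lowest KO library of Kcnj2 was replicate 3, at 182 against 221 to 228. Neither gene lost its call when any 1 library was left out. Of 62 groups examined these were the 2 that passed, and chance gives about 1 in 20.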

How the results depend on the processing

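The counts of 18 higher and 6 lower members stayed within 1.5 times under all 20 alternatives, and no called member changed direction. Some members that were not called changed sign. Kcnh2 had 0.23 with libraries 1 and 2 alone and -0.49 with libraries 3 and 4 alone, and Kcnj4 had 1.53 and -0.27. Limma without trend called 24 members, 23 of them also called in the main fit, and lost Kcnj6. The replicate block gave 25 and 6, and all 24 members kept their calls. It changed no other call beside adding 7 (Kcna1, Kcna4, Kcna6, Kcnk5, Kcnk10, Kcnn4 and Kcnq5). The set term gave 27 and 6, and quantile normalization 13 and 6. Leaving out 1 library gave 13 to 19 higher and 5 to 6 lower. Over all genes the counts of 1562 and 1385 became 2400 and 2102 with the set term, and 1121 to 1684 and 863 to 1597 when 1 library was left out, with 863 lower without WT replicate 2 and 909 without KO replicate 4. With totals free of hormone and mitochondrially encoded genes 1746 were higher and 1017 lower, or 63.2% higher against 53%, and the member counts did not move. The cause of these differences was not tested. Of the 24 called members 18 kept their calls without any 1 library. Depth is unknown, so small differences in members with a mean value under 100 (22 of 59) are limited by an error that could not be computed.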

Other observations

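Rises among the members occurred in every range of mean value. Of 22 members with a mean value under 100 over the 8 libraries 7 were higher and none lower, where 14.2% of all genes in that range were higher and 2.4% lower. Of 28 members between 100 and 1000, 9 were higher and 5 lower (12.5% and 7.93% of all genes), and of 9 members at 1000 or more, 2 were higher (Kcnh1 and Kcnk1) and 1 lower (Kcnmb2), against 7.73% and 15.6%. The median log2 fold changes of the members in these ranges were 1.16, 0.38 and 0.08, beside 0.28, 0.0 and -0.05 over all genes.

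Kcna5, Kcna1 and Kcna6 lie close together on chromosome 6, between 126532551 and 126740674, all on the minus strand. Kcna5 differed by 0.51 between libraries 3 and 4 and libraries 1 and 2 in WT and by -0.08 in KO, on the log2 scale, whereas Kcna1 differed by 2.26 and 2.16 and Kcna6 by 2.06 and 2.16. Kcnk5 and Kcnk16 lie close together on chromosome 14, from 20140057 to 20269199, with log2 fold changes of 1.38 and -0.18. These differences between nearby genes were not tested.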
